A study of Mus musculus with 8 samples.

Results

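The genes described are those of the proteins of the cytosolic ribosome. They were chosen from the gene count table by symbol, as protein-coding genes named Rpl, Rps or Rplp with a number, with Rpsa, and without pseudogenes and kinases. This gave 84 of the 27179 genes in the table, 32 of the small subunit and 52 of the large subunit. RNA-seq had been done on 4 mammary tumour lines of the mouse that share a BALB/c origin, namely 67NR, 66cl4, 4T1 and 4T1.2, grown as cultures without a treatment, with 2 biological replicates each. The study contrasts 4T1 and its derivative 4T1.2, which spread readily, with 66cl4 and 67NR, which have little metastatic potential. The sample labels spell 66cl4 with a digit in place of its letter l, and the spelling of the study's text is kept here. Each line is a cell line in culture and no host tissue was sequenced. Libraries held 37159840 to 66269681 counts. Summed over 5 epithelial markers, the level was 1376 to 2483 CPM (counts scaled to a common library size) in the 4T1.2 and 4T1 libraries and 458 to 699 CPM in the 66cl4 and 67NR libraries, and 5 mesenchymal markers summed to 4372 to 5938 CPM and 2015 to 3456 CPM. The 6 leucocyte markers summed to 0.156 to 0.297 CPM in the 4T1.2 and 4T1 libraries and 17.2 to 22.6 CPM in the others, with 4 of the 6 at 3 counts or fewer in every library and Adgre1 and Cd3e at 0. Endothelial, erythroid, germ cell and striated muscle markers each summed to at most 3.40 CPM in any library. The part of these marker differences in the results below was not tested.

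A ribosome is assembled in the nucleolus from ribosomal RNA and about as many kinds of protein as there are genes here, and nearly every protein is needed in equal number in each particle. Messengers of ribosomal proteins commonly begin with a tract of pyrimidines through which the mTOR pathway controls their translation. The genes have left many processed copies across mammalian genomes, and a few have expressed paralogues. Rpl3l is known from striated muscle, and Rpl10l and Rpl39l from the testis.

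Paralogues among the members are first compared by their coding sequences, because shared sequence limits how reads can be told apart. Those of the Rps27 and Rpl39 genes are shown, taken from GENCODE transcripts of GRCm38 and written on the strand of the gene, with capitals marking bases that differ from the first sequence of each set. Rps27 (chr3:90212667-90213648, minus strand) and Rps27rt (chr9:114982366-114982739, minus strand) had the same 255 coding bases, so 1 line serves both. Rps27l (chr9:66944624-66949522, plus strand) differed from them at 61 bases, an identity of 76.1%, with no identical run longer than 11 bases.
Rps27 and Rps27rt: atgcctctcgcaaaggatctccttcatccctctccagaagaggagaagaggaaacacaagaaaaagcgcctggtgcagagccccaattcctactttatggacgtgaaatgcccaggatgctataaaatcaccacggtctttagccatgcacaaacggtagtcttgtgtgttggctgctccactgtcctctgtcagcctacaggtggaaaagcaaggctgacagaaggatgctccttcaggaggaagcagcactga
Rps27l: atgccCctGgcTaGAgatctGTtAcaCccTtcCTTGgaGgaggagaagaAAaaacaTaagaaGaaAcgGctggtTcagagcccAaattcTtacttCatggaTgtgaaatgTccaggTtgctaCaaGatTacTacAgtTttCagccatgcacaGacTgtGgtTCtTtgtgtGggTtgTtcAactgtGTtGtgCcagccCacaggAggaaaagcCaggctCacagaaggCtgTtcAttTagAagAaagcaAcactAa
Rpl36al differed from Rpl36a at 39 of 321 coding bases, an identity of 87.9%, with a longest identical run of 24 bases.
Rpl39l (chr16:10170197-10174911, plus strand) differed from Rpl39 (chrX:37082518-37085222, minus strand) at 23 of 156 coding bases, an identity of 85.3%, with a longest identical run of 38 bases.
Rpl39: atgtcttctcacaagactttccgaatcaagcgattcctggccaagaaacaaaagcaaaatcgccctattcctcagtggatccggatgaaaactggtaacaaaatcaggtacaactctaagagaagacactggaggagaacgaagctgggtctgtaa
Rpl39l: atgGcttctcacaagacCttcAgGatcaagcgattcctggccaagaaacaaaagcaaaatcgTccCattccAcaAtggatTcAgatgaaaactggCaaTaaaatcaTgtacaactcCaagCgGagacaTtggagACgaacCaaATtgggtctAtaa
A read within the coding sequence could therefore come from Rps27 or Rps27rt alike, whereas Rps27l, Rpl36al and Rpl39l can be told from their partners by sequence.

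Shared sequence was common among the members. Over 82 members with a coding sequence in GENCODE, the median share of 75-base coding stretches found in the transcript of no gene elsewhere was 17.1%. For 24 members, among them Rps12, Rps16, Rps27, Rps27a, Rpl10, Rpl27 and Rpl36a, no coding stretch was unique, while for Rps3, Rpl3l and Rpl39l every stretch was. In the count table, 17 predicted genes or pseudogenes had at least 50% of their own stretches in a member and were counted apart from it. Of these, 16 held more counts than their member in every library. Gm12191 held 18.04 to 35.9 times the counts of Rpl30, and Gm15772 held 97.3 to 139 times those of Rpl26. The exception was Rpl31-ps12, at 0.442 to 0.616 times the counts of Rpl31.

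Levels were compared between genes per length, as RPKM (CPM divided by the counted gene length in kilobases). They spanned 741-fold over the 81 members that passed the filter on low counts. The highest means over the 8 libraries were those of Rplp1, a protein of the stalk that recruits translation factors (3223 RPKM, range 1933 to 4630), Rpl8 (1761 RPKM, range 1371 to 2311) and Rpl4, which lines the exit tunnel (1752 RPKM, range 1241 to 2176). The ranges of these 3 overlapped. The lowest were those of Rps13 (8.63 RPKM, range 5.97 to 10.8), Rpl39, a small protein of the exit tunnel (5.77 RPKM, range 2.58 to 9.42), and Rpl21 (4.35 RPKM, range 3.22 to 5.95). These ranges overlapped as well. Across 79 members with both values, Spearman's rho between mean RPKM and the unique share of the coding sequence was 0.57, given as a description, since genes are not independent and share libraries and lengths. The median level was 792 RPKM for the 17 members with over 50% unique stretches and 47.2 RPKM for the 34 with under 10%. Whether reads of members were counted on their copies was not tested, so the levels describe counted reads. Rps27rt was the highest of the members with under 10% unique stretches, at 1047 RPKM, beside 18.6 RPKM for Rps27.

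**Figure D1:**
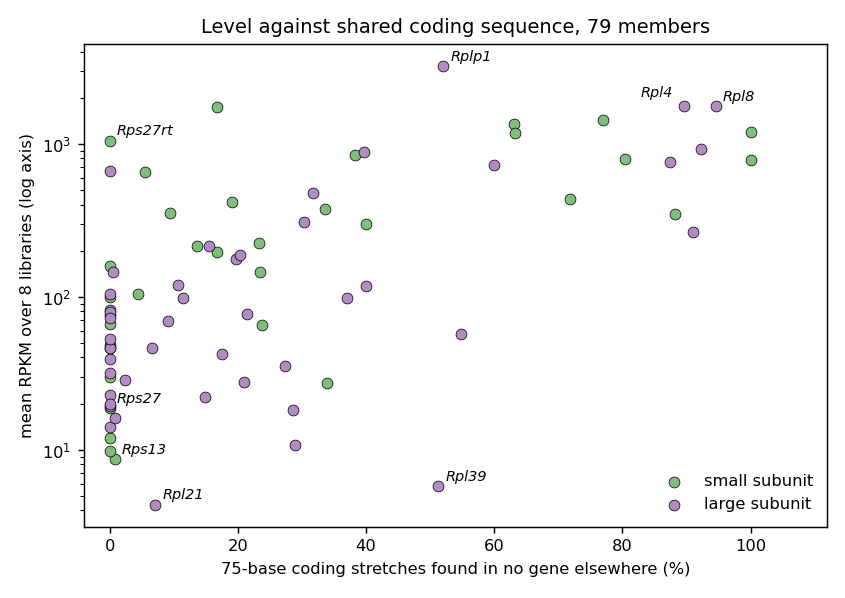
Mean RPKM over the 8 libraries (log axis) of 79 members against the percentage of their 75-base coding stretches found in no gene elsewhere, with small subunit genes in green and large subunit genes in purple. Members over 50% unique had a median of 792 RPKM, with Rpl39 (5.77 RPKM) far under the others, and members under 10% had a median of 47.2 RPKM with Rps27rt at the top.

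The filter left out 3 members, which were not tested. Rpl3l had 5 counts in 4T1.2 replicate 1, 5 in 66cl4 replicate 1, 3 in 67NR replicate 2 and 0 in the other libraries. Rpl10l had 1 count in 4 libraries and 0 in the others. Rpl39l had 1 count in 67NR replicate 2 and 0 elsewhere. A count of 0 allows up to 3 counts, which is 0.0453 to 0.0807 CPM of a library's total. The paralogues known from muscle and testis were thus at or near the limit of detection in the 4 lines.

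The first question was whether the lines differed in the share of all counts that fell on the members. The share was 1.82% and 2.10% in the 4T1.2 replicates, 1.88% and 2.52% in those of 4T1, 2.65% and 2.50% in those of 66cl4 and 2.62% and 2.85% in those of 67NR. The share was lowest in 4T1.2 and highest in 67NR, and the 2 groups of lines overlapped only through 4T1 replicate 2, which lay just above 66cl4 replicate 2. The mean was 1.96% ± 0.202 for 4T1.2, 2.20% ± 0.454 for 4T1, 2.58% ± 0.105 for 66cl4 and 2.74% ± 0.163 for 67NR (SD, n = 2). The mean over the 4 libraries of 4T1 and 4T1.2 was 2.08% ± 0.318 and that over 66cl4 and 67NR was 2.66% ± 0.144 (SD, n = 4), a difference of -0.578 percentage points beside a pooled SD between replicates of 0.267. Lines next to each other in this order overlapped between their replicates. Counting error was small beside the replicate spread, since the widest Wilson 95% interval, that of 67NR replicate 1, ran from 2.61% to 2.62%. These intervals and the limits for a count of 0 cover counting error only. No p-value is given for this sum over the members. The difference was -0.366 percentage points with TMM effective library sizes as the denominator and -0.235 without the 5 most abundant members, Rpl4, Rps3, Rpl8, Rplp1 and Rplp0, which held 32.9% to 41.0% of the member counts. In bulk libraries, fewer cells with a high level and a lower level in every cell cannot be told apart.

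**Figure D2:**
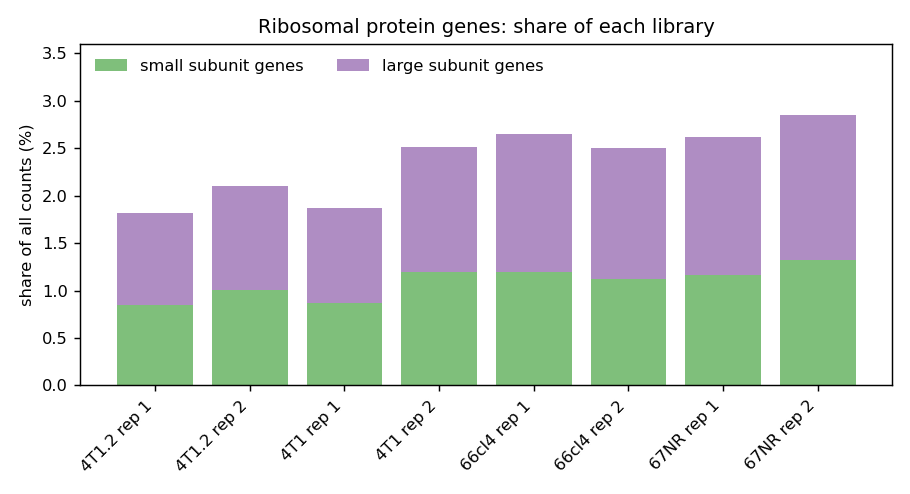
Share of all counts (%) on small subunit genes (green) and large subunit genes (purple) in each of the 8 libraries, stacked from 0. The 66cl4 and 67NR libraries lie between 2.50% and 2.85%, and the 4T1.2 and 4T1 libraries between 1.82% and 2.52%, with 4T1 replicate 2 the highest of these.

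Both subunits took part in the difference. The small subunit held 0.846% to 1.19% of the counts in the 4T1.2 and 4T1 libraries and 1.122% to 1.33% in the others. The large subunit held 0.969% to 1.32% and 1.38% to 1.52%, without overlap. The ratio of large to small subunit counts was 1.13 ± 0.0262 and 1.21 ± 0.0434 (SD, n = 4), and 67NR replicate 2 (1.15) fell within the range of the 4T1.2 and 4T1 libraries. The share of 18 translation factors and related genes went the same way as that of the members, without overlap between the groups. It was 1.90% ± 0.223 for 4T1/4T1.2 and 2.49% ± 0.122 for 66cl4/67NR (SD, n = 4). The share of the mitochondrial ribosomal proteins went the other way, at 0.471% ± 0.0272 for 4T1.2 and 0.459% ± 0.0410 for 4T1, beside 0.308% ± 0.00721 for 66cl4 and 0.402% ± 0.0115 for 67NR (SD, n = 2). The mitochondrial genome held 2.64% to 6.02% of the counts, and leaving it out of the denominator gave a difference of -0.563 percentage points for the members.

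The members moved as a block between some replicates. In 4T1, 79 of the 81 tested members had a higher CPM in replicate 2 than in replicate 1, with a median of 1.44-fold. In 4T1.2 this held for 69 members (1.14-fold), in 67NR for 69 (1.11-fold) and in 66cl4 for 43 (1.02-fold). The median log2 difference between replicates over all tested genes was at most 0.00378 in size. Among the calls recomputed without each library, those on Rpl37 in the pooled comparison and on Rps12 in 4T1.2 against 4T1 ended without 4T1 replicate 2, as did that on Rpl30 in 4T1.2 against 4T1.

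**Figure D3:**
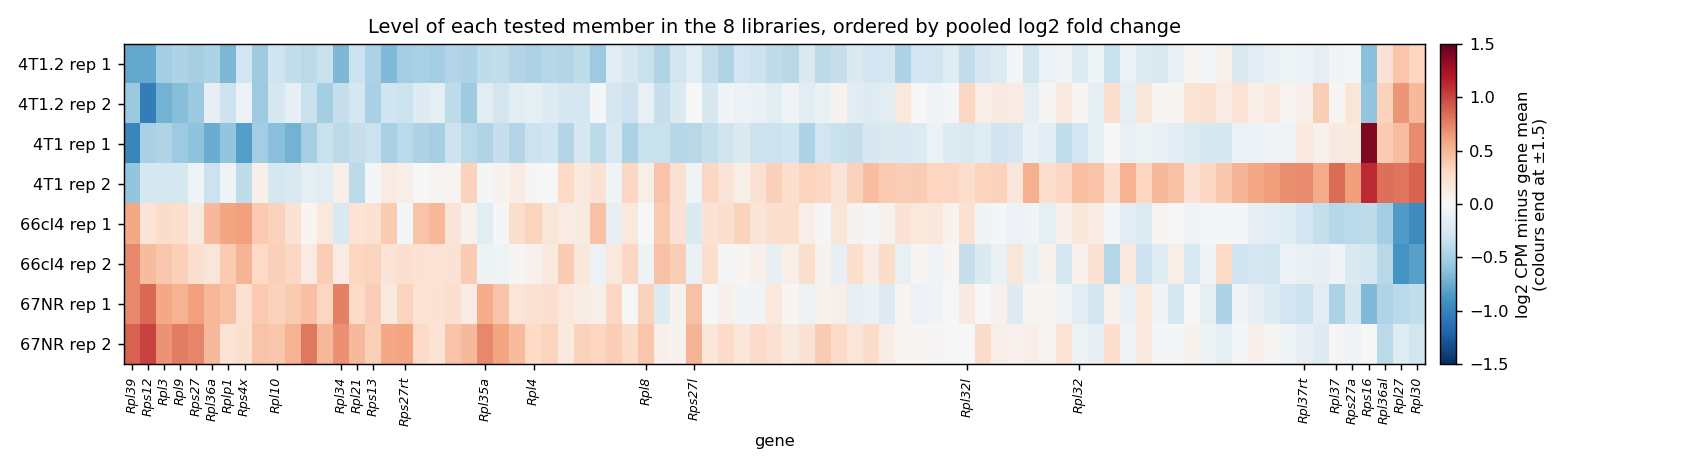
Level of each of the 81 tested members in the 8 libraries as log2 CPM minus the mean of the gene, with red above and blue below it and colours ending at 1.5 in size, ordered by the log2 fold change of the pooled comparison, with labels for the same genes as in the plot of those fold changes. The row of 4T1 replicate 2 is redder than that of replicate 1 for 79 members, and Rps16 stands out in both 4T1 libraries.

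Next, the mean of 4T1.2 and 4T1 was set against that of the other lines, gene by gene, to ask which members differ between the groups. Of the 81 tested members, 4T1/4T1.2 had 8 at a higher and 34 at a lower level (adjusted p under 0.05 in the quasi-likelihood test of edgeR, corrected by Benjamini-Hochberg over the 15269 genes tested). That is 51.9% of the members beside 75.1% of all genes. Members were called higher in 9.88% of cases beside 37.5% of all genes, and lower in 42.0% beside 37.6%. The share called lower was thus near the background and the share called higher was below it. The median log2 fold change was -0.24 over the members and -0.01 over all genes tested. Here and below, counts from other settings or with a library left out have no share of all genes beside them. Such counts therefore cannot be read as particular to the members. Lower calls made up 80.95% of the member calls, a split that was 19 higher and 32 lower without 4T1 replicate 1 and 6 higher and 50 lower without 4T1 replicate 2. Relative to the summed member counts of each library, 18 members were higher and 17 lower, and the member median was -0.02. In this scaling, as in later comparisons that use it, the members' own sum is the library size. That choice draws their changes toward a balance around 0 by construction, and the median of all genes became 0.24. Scaling by library totals gave a median of -0.14 for all genes and of -0.37 for the members.

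By part of the ribosome, 2 of 32 small subunit genes were higher and 14 lower, with a median log2 fold change of -0.27. Of the 46 large subunit genes outside the stalk, 6 were higher and 18 lower, with a median of -0.24. Of the 3 stalk genes, Rplp0 and Rplp1 were lower, and Rplp2 did not pass the test. Rpl5 was lower and Rpl11 did not pass, 2 proteins that travel with a ribosomal RNA as a particle able to bind Mdm2. By shared sequence, 0 of the 17 members with over 50% unique coding stretches were higher and 6 lower, with a median of -0.24. Of the 24 with no unique stretch, 3 were higher and 14 lower, with a median of -0.41. Over all genes 37.5% were higher and 37.6% lower. The part of shared reads in these calls was not tested.

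**Figure D4:**
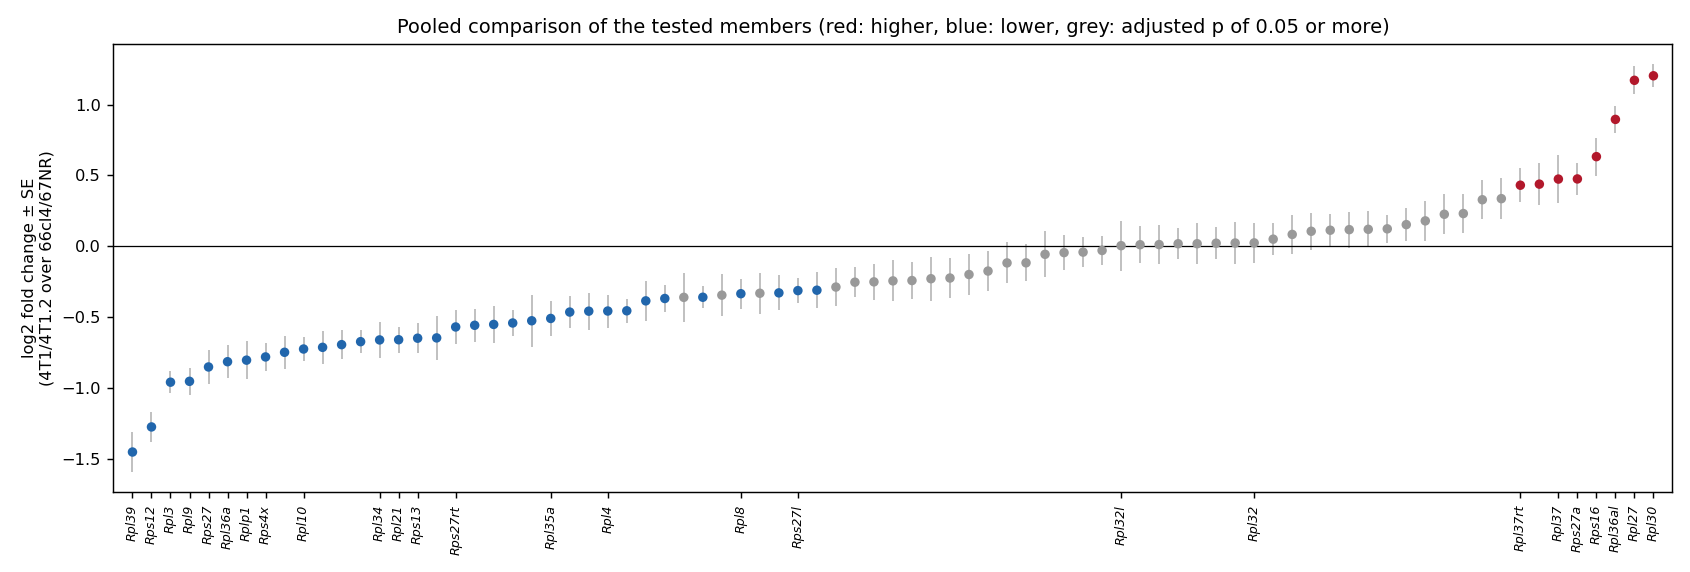
Log2 fold change (4T1/4T1.2 over 66cl4/67NR) with its standard error for the 81 tested members, in order of size and labelled where the named-gene rule holds, with members called higher in red, called lower in blue and the others in grey. The values run from -1.45 for Rpl39 to 1.203 for Rpl30, with 34 blue and 8 red points.

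Among the 8 members that were higher, 5 had 4T1.2 and 4T1 libraries that all lay above those of 66cl4 and 67NR (6.17% of members beside 27.4% of all genes). Rpl30, a protein of the large subunit, had 24.97 and 28.1 CPM in 4T1.2, 32.7 and 37.1 CPM in 4T1, 10.4 and 11.4 CPM in 66cl4 and 15.5 and 16.5 CPM in 67NR. Both 4T1 libraries were the highest and both 66cl4 libraries the lowest. Rpl30 was 2.30-fold higher in 4T1/4T1.2 (log2 fold change 1.203, SE 0.08, adjusted p of 6.54e-07 by edgeR), and 0.63 on the log2 scale (adjusted p 0.000294 by edgeR) when the counts of its copy Gm12191 were added. Rpl27, also of the large subunit, had 40.9 and 48.5 CPM in 4T1.2, 42.4 and 53.7 CPM in 4T1, 17.1 and 16.5 CPM in 66cl4 and 23.3 and 27.1 CPM in 67NR. Every 4T1.2 and 4T1 library lay well above the rest, with a log2 fold change of 1.17 (SE 0.10, adjusted p of 3.74e-06 by edgeR). Rps27a, which is made as a fusion with ubiquitin, had 52.0 and 60.0 CPM in 4T1.2, 58.6 and 81.7 CPM in 4T1, 40.1 and 45.4 CPM in 66cl4 and 44.6 and 50.4 CPM in 67NR. The gap between the groups was narrow, and the log2 fold change was 0.48 (SE 0.11, adjusted p of 0.00335 by edgeR). The others of the 5 were Rpl36al and Rpl37rt, described with their partners below, as is Rps16, which was higher (log2 fold change 0.63) with overlapping libraries. Rpl26 and Rpl37 passed the test with overlapping libraries, at log2 fold changes of 0.44 and 0.47, and Rpl37 no longer passed without 4T1 replicate 2 (0.27, adjusted p of 0.0729 by edgeR) or without any of 3 other libraries in turn. Rpl27, Rps27a and Rpl26 lie on chromosome 11, where the median over the 1207 genes tested was 0.30.

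Of the members that were lower, 21 had libraries that did not overlap between the groups (25.9% of members beside 26.9% of all genes). Rps12, a protein of the small subunit head, had 8.04 and 6.65 CPM in 4T1.2, 9.77 and 11.4 CPM in 4T1, 15.8 and 19.0 CPM in 66cl4 and 24.8 and 27.6 CPM in 67NR. The lines fell in this order without overlap, and the pooled log2 fold change was -1.28 (SE 0.10, adjusted p of 2.90e-06 by edgeR). Rpl39 had 1.18 and 1.36 CPM in 4T1.2, 1.02 and 1.33 CPM in 4T1, 3.0 and 3.29 CPM in 66cl4 and 3.30 and 3.71 CPM in 67NR. It had the largest change among the members (log2 fold change -1.45, SE 0.14, adjusted p of 9.41e-06 by edgeR) on the lowest counts, 66 to 246 a library. Rpl3, which reaches toward the catalytic centre of the large subunit, had 41.5 and 36.1 CPM in 4T1.2, 43.4 and 49.7 CPM in 4T1, 71.3 and 78.2 CPM in 66cl4 and 88.2 and 94.1 CPM in 67NR. Its log2 fold change was -0.96 (SE 0.08, adjusted p of 2.55e-06 by edgeR). Rpl9 had 14.1 and 12.5 CPM in 4T1.2, 13.4 and 16.1 CPM in 4T1, 23.2 and 24.96 CPM in 66cl4 and 27.8 and 33.2 CPM in 67NR. As for Rpl3, both 67NR libraries were the highest, and the log2 fold change was -0.95 (SE 0.10, adjusted p of 1.19e-05 by edgeR). Unique coding stretches made up 0% for Rps12, 6.59% for Rpl3 and 2.38% for Rpl9. None of them had a copy that met the 50% rule, so adding copies left their counts unchanged. The stalk protein gene Rplp1 had 905 and 1160 CPM in 4T1.2, 955 and 1376 CPM in 4T1, 2167 and 1894 CPM in 66cl4 and 1954 and 1656 CPM in 67NR. The groups did not overlap (log2 fold change -0.80, SE 0.14, adjusted p of 0.000450 by edgeR). Among the members with the highest or lowest levels, Rpl4 (-0.46), Rpl8 (-0.33), Rpl21 (-0.66) and Rps13 (-0.65) were lower too. Relative to the summed member counts, Rpl4 (-0.22), Rpl8 (-0.10), Rpl21 (-0.41) and Rps13 (-0.41) did not pass. Rps13 did not pass when the counts of its copy were added (log2 fold change -0.12, adjusted p of 0.408 by edgeR), nor did Rpl17 (from -0.54 to -0.18), and Rpl8 did not pass without 4T1.2 replicate 1 or 67NR replicate 2.

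The 4 tested members on the X chromosome, Rpl39, Rpl36a, Rps4x and Rpl10, were all lower, with a median log2 fold change of -0.80. The median over the 535 genes tested on that chromosome was -0.49. Rps4x had 259 and 298 CPM in 4T1.2, 179 and 243 CPM in 4T1, 483 and 450 CPM in 66cl4 and 371 and 373 CPM in 67NR (log2 fold change -0.78, SE 0.10, adjusted p of 7.28e-05 by edgeR). Rpl10, whose product joins the large subunit at a last step of its maturation, had 47.2 and 48.3 CPM in 4T1.2, 37.5 and 48.1 CPM in 4T1, 73.5 and 74.5 CPM in 66cl4 and 73.9 and 76.9 CPM in 67NR. The libraries of Rpl10 and Rps4x did not overlap between the groups, and after subtraction of the chromosome's median their log2 fold changes were -0.23 and -0.29, beside -0.96 for Rpl39 and -0.32 for Rpl36a. The other 77 tested members had a median of -0.23, with 8 higher and 30 lower.

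The second question was whether single paralogues differed between the lines. Rpl36a and Rpl36al, whose proteins sit near the exit site for transfer RNA, changed in opposite directions. Rpl36a had 24.4 and 31.1 CPM in 4T1.2, 20.2 and 27.1 CPM in 4T1, 47.3 and 38.3 CPM in 66cl4 and 47.5 and 47.1 CPM in 67NR. Rpl36al had 174 and 191 CPM in 4T1.2, 195 and 267 CPM in 4T1, 106 and 113 CPM in 66cl4 and 109 and 114 CPM in 67NR. All 4T1.2 and 4T1 libraries were below the others for Rpl36a and above them for Rpl36al. The pooled log2 fold change was -0.81 (SE 0.12, adjusted p of 0.000166 by edgeR) for Rpl36a and 0.90 (SE 0.10, adjusted p of 2.18e-05 by edgeR) for Rpl36al. On the RPKM scale, the ratio of Rpl36al to Rpl36a was 6.28 ± 0.670 for 4T1.2, 9.23 ± 0.144 for 4T1, 2.45 ± 0.470 for 66cl4 and 2.23 ± 0.0733 for 67NR (SD, n = 2). The ratios of 4T1.2 and 4T1 did not overlap with those of the other lines or with each other, while 66cl4 and 67NR overlapped. No coding stretch of Rpl36a was unique, and 30.4% of those of Rpl36al were.

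The Rps27 genes, whose proteins belong to the small subunit, fell together in the pooled comparison. Rps27 had 7.13 and 6.88 CPM in 4T1.2, 6.61 and 9.68 CPM in 4T1, 11.1 and 11.9 CPM in 66cl4 and 15.4 and 16.8 CPM in 67NR. Rps27rt had 267 and 304 CPM in 4T1.2, 286 and 402 CPM in 4T1, 373 and 450 CPM in 66cl4 and 479 and 571 CPM in 67NR. Rps27l, known as a target of the tumour suppressor Trp53, had 177 and 198 CPM in 4T1.2, 149 and 191 CPM in 4T1, 171 and 185 CPM in 66cl4 and 270 and 283 CPM in 67NR. Both 67NR libraries were the highest for all 3 genes, and for Rps27l the other 3 lines overlapped. The pooled log2 fold change was -0.85 (SE 0.12) for Rps27, -0.57 (SE 0.12) for Rps27rt and -0.31 (SE 0.09) for Rps27l, with adjusted p of 0.000140, 0.00190 and 0.00918 by edgeR. Relative to the summed member counts, Rps27l did not pass (log2 fold change -0.08, adjusted p of 0.645 by edgeR). The ratio of Rps27l to Rps27 in RPKM was 33.2 ± 3.53 for 4T1.2, 26.2 ± 2.43 for 4T1, 19.2 ± 0.106 for 66cl4 and 21.3 ± 0.519 for 67NR (SD, n = 2), without overlap between lines. Since Rps27 and Rps27rt have the same coding sequence, their separate values depend on the reads outside it and on how shared reads were assigned.

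Rpl37rt, a copy of Rpl37, and Rpl37 itself kept a ratio in RPKM of 24.4 to 30.1 in the 8 libraries. Rpl37rt had 429 and 480 CPM in 4T1.2, 504 and 749 CPM in 4T1, 375 and 422 CPM in 66cl4 and 367 and 418 CPM in 67NR. It was highest in 4T1, with a pooled log2 fold change of 0.43 (SE 0.12, adjusted p of 0.00943 by edgeR) beside 0.47 (SE 0.17) for Rpl37. Without 4T1 replicate 2 the value for Rpl37rt was 0.27 (adjusted p of 0.0128 by edgeR). Rpl32l and Rpl32 did not pass the test, with log2 fold changes of 0.00 (SE 0.18) and 0.02 (SE 0.14), and the range of their ratio in RPKM was 0.283 to 0.462 over the libraries. Rpl32 had 376 to 625 CPM and Rpl32l 158 to 251 CPM.

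Rps16, a protein of the small subunit that contacts transfer RNA, set 4T1 apart from the other lines. It had 54.5 and 55.8 CPM in 4T1.2, 220 and 183 CPM in 4T1, 64.3 and 70.2 CPM in 66cl4 and 52.8 and 84.5 CPM in 67NR. Both 4T1 libraries were far above the other 6, among which both of 4T1.2 lay below those of 66cl4 and those of 67NR spanned the rest. The log2 fold change was -1.87 (SE 0.19, adjusted p of 0.000261 by edgeR) in 4T1.2 against 4T1, 1.58 (SE 0.19, adjusted p of 6.2e-05 by edgeR) in 4T1 against 66cl4 and 1.55 (SE 0.19) in 4T1 against 67NR. Against 66cl4 and 67NR, 4T1.2 did not pass, at -0.29 and -0.32. These comparisons share libraries. No coding stretch of Rps16 was unique, and 3 other genes shared stretches with its transcript.

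**Figure D5:**
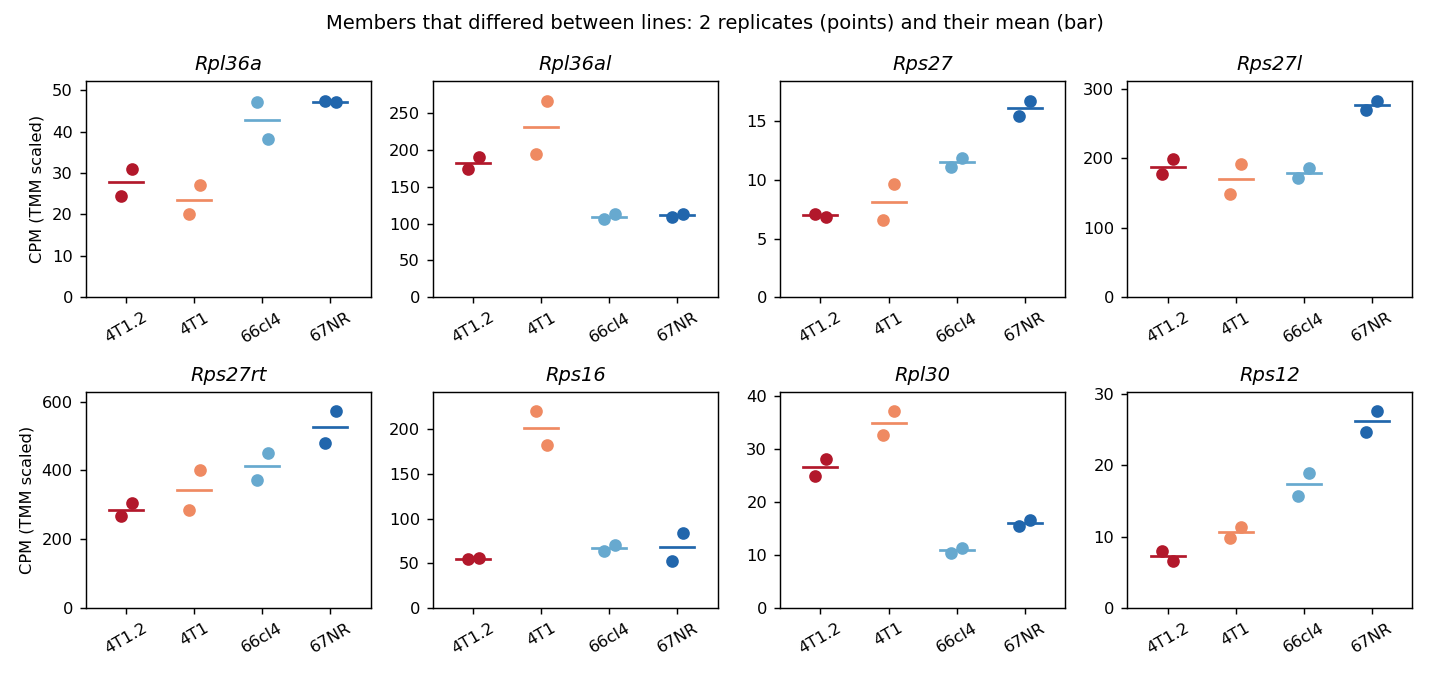
CPM (scaled by TMM, axes from 0) of Rpl36a, Rpl36al, Rps27, Rps27l, Rps27rt, Rps16, Rpl30 and Rps12 in the 4 lines, with a point for each of 2 replicates and a bar for their mean. Rpl36a and Rpl36al change in opposite directions between the 2 groups of lines, and Rps16 is high in 4T1 alone, at 183 and 220 CPM.

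The comparisons of lines within each group gave fewer calls. In 4T1.2 against 4T1, 3 members were lower (3.70% of members beside 17.1% of all genes), Rps16, Rps12 (log2 fold change -0.53, SE 0.15, adjusted p of 0.0402 by edgeR) and Rpl30 (-0.40, SE 0.11, adjusted p of 0.0377 by edgeR). None was higher by edgeR (8.36% of all genes were, and 8.74% were lower), with 1 at an unadjusted p under 0.05, 1 by DESeq2 and 0 by limma-voom. The median over the members was -0.20 and over all genes 0. Without 4T1 replicate 1, 38 members were lower, without 4T1 replicate 2 the numbers were 2 higher and 1 lower, and the number was 1 without either of the 4T1.2 replicates or either of the 67NR replicates. The calls on Rps12 (log2 fold change -0.41, adjusted p of 0.143 by edgeR without 4T1 replicate 2) and Rpl30 ended without 4T1 replicate 2, without either 4T1.2 replicate and without either 67NR replicate, and Rps16 was the member still lower in each. With library totals 1 member was higher and 2 lower, and with the length and GC trend removed 3 were higher and 7 lower.

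In 66cl4 against 67NR, 10 members were lower (12.3% of members beside 41.8% of all genes). None was higher by edgeR (19.8% of all genes were, and 22.0% were lower), with 2 at an unadjusted p under 0.05, 1 by DESeq2 and 0 by limma-voom. Rpl34, of the large subunit, had 40.9 and 51.3 CPM in 4T1.2, 49.7 and 69.4 CPM in 4T1, 55.8 and 71.2 CPM in 66cl4 and 111 and 105 CPM in 67NR. Rpl35a had 4.75 and 5.53 CPM in 4T1.2, 4.53 and 6.11 CPM in 4T1, 5.51 and 5.91 CPM in 66cl4 and 9.11 and 10.2 CPM in 67NR. For both genes the 67NR libraries were above all others. For Rpl34 both 4T1.2 libraries lay below those of 66cl4, and for Rpl35a the other lines overlapped. The log2 fold change was -0.77 (SE 0.18, adjusted p of 0.00709 by edgeR) for Rpl34 and -0.76 (SE 0.17, adjusted p of 0.00621 by edgeR) for Rpl35a. Rpl34 did not pass without 66cl4 replicate 1 (adjusted p of 0.0741 by edgeR) or 67NR replicate 1 (0.0519), and Rpl35a did not without 67NR replicate 2 (0.0586). The others were Rps27l (-0.63), Rps12 (-0.59), Rpl27 (-0.59), Rpl30 (-0.56), Rpl38 (-0.55), Rpl13 (-0.55), Rps27 (-0.49) and Rpl12 (-0.32). When the counts of Gm12191 were added, Rpl30 no longer passed (log2 fold change -0.22, adjusted p of 0.249 by edgeR). Relative to the summed member counts, none of the 81 members passed, with Rpl34 at -0.70 (adjusted p of 0.05005 by edgeR) and Rpl35a at -0.69 (adjusted p of 0.0550 by edgeR). With the length and GC trend removed 6 members were higher and 11 lower, and with the replicate number as a block 2 were higher and 12 lower. The number called was 3 without 67NR replicate 2, 4 without 66cl4 replicate 1 and 20, of which 5 were higher, without either 4T1 replicate.

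The comparisons across the groups share libraries and are given side by side. In 4T1.2 against 66cl4, 3 members were higher and 30 lower (40.7% called beside 67.1% of all genes, of which 34.1% were higher and 33.0% lower). In 4T1.2 against 67NR the numbers were 3 and 31 (42.0% beside 65.7%, with 32.5% higher and 33.2% lower). The 3 higher members were Rpl27, Rpl30 and Rpl36al in both. In 4T1 against 66cl4, 10 were higher and 19 lower (35.8% beside 68.0%, with 34.7% higher and 33.4% lower), and in 4T1 against 67NR 8 and 26 (42.0% beside 66.0%, with 32.5% higher and 33.6% lower). Relative to the summed member counts, 11 were higher and 7 lower in 4T1.2 against 66cl4, 10 and 11 in 4T1.2 against 67NR, 13 and 7 in 4T1 against 66cl4, and 12 and 14 in 4T1 against 67NR. In 4T1 against 66cl4 the split was 7 and 24 with library totals and 9 and 42 with the length and GC trend removed. The number called was 18 in 4T1.2 against 66cl4 without 4T1.2 replicate 1, and 19 in 4T1 against 66cl4 without 66cl4 replicate 1. For 4T1 the balance depended on the replicate, with 25 higher and 12 lower against 66cl4 without 4T1 replicate 1, and 6 higher and 42 lower without replicate 2. Against 67NR it was 25 and 20 without replicate 1 and 5 and 44 without replicate 2. Rps12 had its lowest value in 4T1.2 against 67NR, at a log2 fold change of -1.84 (SE 0.15), and Rps4x was at -1.15 (SE 0.14) in 4T1 against 66cl4. Rpl30 in 4T1.2 against 67NR fell from 0.73 to 0.35 with its copy added (adjusted p of 0.0535 by edgeR). A test of any difference among the 4 lines called 38 members (46.9% beside 82.1% of all genes).

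The start of the messenger was examined because the members share its known pyrimidine tract. In RefSeq promoters of GRCm38.p6, 64 of the 84 members had an entry, and windows of 30 bases from 10 bases before the annotated start were searched on the gene's strand for a run of at least 6 pyrimidines that opens with C. The run was found in 37 members (57.8%) and in 24.9% of 27025 genes. Capitals mark the longest run in members named above, with 3 that hold it and 3 that do not. The 3 shown with it were lower in the pooled comparison and the 3 shown without it were higher. These examples do not stand for the rest, since Rpl36a, Rpl10, Rps4x, Rpl9, Rplp0 and Rpl4 lacked the run and were lower. The start that the promoter table gives for Rps12 lies inside the annotated span of the gene.
Rps12 (chr10:23787190-23787219, minus strand): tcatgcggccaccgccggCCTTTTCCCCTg
Rps27 (chr3:90213629-90213658, minus strand): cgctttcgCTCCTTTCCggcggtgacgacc
Rpl39 (chrX:37085203-37085232, minus strand): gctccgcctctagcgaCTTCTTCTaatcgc
Rpl27 (chr11:101442235-101442264, plus strand): ctgttcctgtctgctgctcgtgctgctaat
Rpl36al (chr12:69184048-69184077, minus strand): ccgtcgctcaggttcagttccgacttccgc
Rps16 (chr7:28350679-28350708, plus strand): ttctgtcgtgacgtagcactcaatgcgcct
Of the 36 tested members with the run, 0 were called higher and 17 lower by edgeR in the pooled comparison, with a median log2 fold change of -0.30, and of the 25 without it 6 were higher and 10 lower, with a median of -0.12. Over all genes 37.5% were higher and 37.6% lower, and the difference between members with and without the run was not tested. The window depends on the annotated start, and an absent run says only that these letters were not in it.

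Genes of ribosomal proteins that carry other names or fell outside the symbol rule differed little. Rack1, a scaffold on the small subunit, had 1481 to 2053 CPM and a pooled log2 fold change of -0.09 (SE 0.13). Fau, made as a fusion with a ubiquitin-like protein, was at -0.05 (SE 0.15), and Rpl7l1 was at 0.03 (SE 0.06). None of these 3 passed the test. Rpl22l1, a paralogue of Rpl22, had 19.8 and 20.6 CPM in 4T1.2, 14.9 and 22.9 CPM in 4T1, 21.3 and 21.7 CPM in 66cl4 and 37.9 and 43.5 CPM in 67NR. Its 67NR libraries were above all others, and the pooled log2 fold change was -0.60 (SE 0.12, adjusted p of 0.00154 by edgeR).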

How the data were processed

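Total RNA of the 8 cultures was prepared with TruSeq RNA v2. The authors used Rsubread to align reads to mm10 and featureCounts to assign them to Entrez genes, and deposited the unnormalized counts. Whether strand was used and how reads with several matches were treated is not given in the sources used here, so overlapping genes and copies can share reads. All 8 columns were mapped to a sample.

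Gene IDs were matched to RefSeq genes of GRCm38.p6 (25275 of 27179, 93.0%). The pattern matched 86 symbols, of which Rpl6l and Rps4l are not protein-coding and were left out. Genes were filtered with filterByExpr (15269 kept) and tested with edgeR 4.0.16 (R 4.3.3, limma 3.58.1) by its quasi-likelihood test with TMM scaling, a mean for each line and Benjamini-Hochberg adjustment at 0.05, on all 8 libraries. The study's methods left ribosomal genes out, and they were kept here as the subject. The biological coefficient of variation was 10.3%. CPM and RPKM use TMM effective library sizes, and shares use library totals. The test was tried on simulated data. The study calls the replicates biological without saying how they were separated, so p-values measure the spread between these libraries. The deviations of same-numbered replicates of different lines had correlations of -0.142 to 0.265 over all genes and -0.683 to 0.256 over the members, not over 0.1 in every pair, so the numbers were not used as pairs, although the members' median was higher in replicate 2 in every line.

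Genes named are paralogues and their partners, the members with the largest changes in each direction (up to 6 in the pooled comparison, 2 in the others) that passed the test and whose libraries did not overlap, the 3 highest and 3 lowest levels, untested members, 4 genes outside the rule and 2 genes a direction from each other list. Rpl26, Rpl12, Rpl13, Rpl38, Rpl17, Rpl5, Rpl11 and the other stalk genes were named after their values were seen. Some items are not reported here. The members and lists were chosen with earlier results of these data known. Alternatives were other scalings, filters, DESeq2 1.42.0, limma-voom, edgeR's newer fit, a length and GC trend, the replicate number as a block, the chromosome's median and leaving out each library. The sum with copies and the share without mitochondrial genes were chosen after seeing the data. Shared sequence was computed from GENCODE vM21 transcripts with Python 3.11.15, and plots were drawn with matplotlib 3.10.9.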

Additional observations from a re-analysis of the deposited data

How the results depend on the processing

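Of 1012 alternative values for 46 results on named members, 983 stayed on their side of the threshold. Another 29 kept their direction and no longer passed, and none changed direction among those called. Results that passed in neither fit could change direction and still be among the 983. Subtraction of the chromosome's median kept the original adjusted p, so it could not move a result across the threshold. The difference in share (-0.578 percentage points) moved to -0.235 without the 5 most abundant members, and stayed between -0.739 and -0.418 as each library was left out. Relative to the member pool, the number of members called was 1 in 4T1.2 against 4T1, 0 in 66cl4 against 67NR, 18 in 4T1.2 against 66cl4 and 21 in 4T1.2 against 67NR. With the length and GC trend removed it was 10, 17 and 54 in the first 3 and 51 in 4T1 against 66cl4. Leaving out each library gave 1 to 38 members in 4T1.2 against 4T1 (38 without 4T1 replicate 1), 3 to 20 in 66cl4 against 67NR, 18 to 48 in 4T1.2 against 66cl4 (18 without 4T1.2 replicate 1), 19 to 48 in 4T1 against 66cl4, 26 to 47 in 4T1.2 against 67NR, 35 to 56 in the pooled comparison and 33 to 68 for any difference among the lines (68 without 4T1 replicate 1). Shares of all genes called under these settings are not given, so the changes are not shown to be particular to the members. Their cause was not tested. In fits that leave 1 library in a line, that library is assumed to vary like the others.

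With the replicate number as a block, 50 members were called in the pooled comparison in place of 42 and 5 in 4T1.2 against 4T1 in place of 3. The numbers were not taken to pair the libraries. The pooled count was 49 with DESeq2, 44 with limma-voom, 42 with edgeR's newer fit, 50 with library totals, 57 with the length and GC trend removed and 40 with copies added. With 2 replicates a line, differences near the shift between the 4T1 replicates could not be told from it, and Rpl3l, Rpl10l and Rpl39l had too few counts to be tested.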

Other observations

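Lists of genes that act around the ribosome were described with the same pooled comparison of 4T1/4T1.2 against 66cl4/67NR (75.1% of all genes called, 37.5% higher and 37.6% lower). Of 77 tested mitochondrial ribosomal protein genes, 55 were higher and 7 lower, with a median log2 fold change of 0.42. Mrpl13 had 464 and 558 CPM in 4T1.2, 420 and 511 CPM in 4T1, 63.6 and 59.6 CPM in 66cl4 and 100.2 and 107 CPM in 67NR, a log2 fold change of 2.61 (SE 0.09, adjusted p of 6.55e-09 by edgeR). Mrps24 was higher too (1.33), and Mrps31 (-0.41) and Mrpl43 (-0.40) were lower. In 66cl4 against 67NR, 1 of the 77 was higher and 42 were lower, beside 19.8% and 22.0% of all genes.

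Of 52 genes of ribosome assembly, 26 were higher and 11 lower in the pooled comparison, with a median of 0.17, and 1 was higher and 41 lower in 66cl4 against 67NR. The pooled split did not hold against both lines. Against 66cl4, 34 were higher and 4 lower in 4T1.2, and 34 and 5 in 4T1. Against 67NR the numbers were 11 and 19 in 4T1.2 (median -0.05) and 11 and 18 in 4T1 (median -0.06). The shares of all genes in these comparisons are given above. Brix1, an assembly factor of the large subunit, had 174 and 184 CPM in 4T1.2, 190 and 202 CPM in 4T1, 64.3 and 58.7 CPM in 66cl4 and 88.3 and 92.1 CPM in 67NR, without overlap between the groups (log2 fold change 1.33, SE 0.06, adjusted p of 5.17e-08 by edgeR). Nhp2, a protein of the particles that guide pseudouridylation, was at 1.08, and Noc3l (-1.56) and Nol6 (-0.63) were lower. Of 18 translation factors and related genes, 5 were higher and 10 lower, with a median of -0.28. Eif3e was at 0.99, Tpt1 at 0.88, Pabpc4 at -1.65 and Eif4a2 at -1.15. Of 15 genes of RNA polymerase I and its factors, 5 were higher (Polr1b at 0.50, Polr1e at 0.50) and 6 lower (Taf1c at -0.90, Taf1d at -0.60). Of 8 chaperones and escorts of ribosomal proteins, 4 were higher (Pdcd2 at 0.38, Bccip at 0.33) and 2 lower (Heatr3 at -0.64, Tsr2 at -0.38).

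Of 17 regulators, 7 were higher and 5 lower. Mycn, a transcription factor of the Myc family, had 24.5 and 28.8 CPM in 66cl4, 17.0 and 17.4 CPM in 67NR and at most 0.0993 in every 4T1.2 and 4T1 library (lower, adjusted p of 5.11e-10 by edgeR). Mycl went the other way, with 3.39 and 4.34 CPM in 4T1.2, 1.80 and 2.19 CPM in 4T1 and at most 0.0256 in the others. Max, their partner, was at 1.05, and Rps6kb2, a kinase of the small subunit protein Rps6, was at -0.91. The part of these differences in those of the ribosomal protein genes was not tested.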
